A study of Mus musculus with 3 samples.

Results

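Aminoacyl-tRNA synthetases and the scaffold proteins of their complex were followed in ribosome footprints of primary mouse cortical neurons. Members were chosen by symbol: protein-coding genes named with 1 letter and "ars" with or without a final 1 or 2, plus Eprs, Farsa, Farsb, Tarsl2, Aimp1 and Aimp2. The choice gave 40 of the 20823 genes whose transcripts are listed with a coding sequence (CDS) and both UTRs. Of these, 21 encode cytosolic synthetases, 17 encode mitochondrial synthetases (symbols that end in 2, other than Tarsl2) and 2 encode the scaffolds Aimp1 and Aimp2. All 40 had at least 100 CDS reads over the 3 libraries, as did 11459 genes in all.

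In ribosome profiling, the stretches of mRNA that ribosomes shield from nuclease are sequenced. The cultured neurons were left without drug (WT), given cycloheximide for 2 min to arrest elongating ribosomes (Chx), or given harringtonine for 2 min before a cycloheximide pulse (Harr). Harringtonine stops ribosomes at the start of translation and lets elongating ones finish. Each treatment had 1 library from 3 pooled dishes, and cycloheximide at 100 μg per ml was in the buffers used to rinse and lyse every culture, WT included, so WT was without drug only until harvest. No difference between libraries therefore has a replicate check, no p-value is given, and every SE and 95% interval covers counting error only.

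The header totals were 30219197 reads in WT, 35722483 in Chx and 9754412 in Harr, of which 16670580, 20210001 and 3774534 fell into the CDS of the longest transcript of a gene. Neuron markers (4 of 4 detected in each library) summed to between 5854 and 8581 CDS reads per 1000000, astrocyte markers (4 of 4) to between 204 and 386, and microglia and oligodendrocyte markers to at most 4.95 and 11.5, with Mog and Mobp at 0 in every library, P2ry12 at 0 in Chx and Harr and Cx3cr1 at 0 in Harr. The part of cells other than neurons in the values below was not tested.

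Synthetases join each amino acid to its tRNA and so supply every elongating ribosome. Cytosolic and mitochondrial translation mostly use separate enzymes, all encoded in the nucleus and made in the cytosol, while Kars and Gars each provide both enzymes from 1 gene. In animals a group of cytosolic synthetases is held with scaffold proteins in the multisynthetase complex, here represented by 8 enzymes (Dars, Eprs, Iars, Kars, Lars, Mars, Qars and Rars) and by Aimp1 and Aimp2. The other 13 cytosolic enzyme genes were grouped apart from it, Tarsl2 by choice, since its place in the complex is not settled here.

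The start codons at which harringtonine holds ribosomes are shown for the genes with more than 1 product and for the members that stood apart below. Each stretch is 24 bases of the GENCODE M21 transcript on mm10, in lower case with the ATG in capitals. Gars is given at its annotated start, which opens the mitochondrial form, and at the next ATG in the same frame, 138 nucleotides downstream. Kars is given at the start of its longer, mitochondrial form and of its shorter, cytosolic form, which begin in different exons.
Gars, annotated start (chr6:55038030-55038053, + strand): ggcggcgtgctcATGccctgtctg
Gars, next ATG in frame (chr6:55038168-55038191, + strand): tcccggagcagcATGgacagcgcg
Kars, longer form (chr8:112008341-112008364, - strand): gggtgttccgccATGttgatgcaa
Kars, shorter form (chr8:112011257-112011280, - strand): ccagtggggaagATGgccacgctg
Aimp2 (chr5:143909704-143909727, - strand): tgggttcccaccATGccgatgtac
Farsa (chr8:84857023-84857046, + strand): ctgggagtagccATGgcggataat
Farsb (chr1:78488831-78488854, - strand): ccacgactcgccATGccgactgtc
Sars (chr3:108445121-108445144, - strand): tgaggtagaaggATGgtgctggac
In both dual-product genes the start of the mitochondrial form lacked the G after the ATG that the start of the cytosolic form had, and in Gars it also lacked a purine 3 bases before the ATG. A purine at that place and a G after the ATG are the best known features of a favoured mammalian start codon. Among the 39 members whose annotated transcript matched the files in length, 32 (82.1%) had a purine 3 bases before the ATG and 21 (53.8%) had a G after it, against 86.7% and 52.6% of the 11401 genes tested whose transcript matched. An ATG within the 5′ UTR was found in 6 of 21 cytosolic members (28.6%), in 9 of 17 mitochondrial members (52.9%) and in 54.0% of all genes matched. The median 5′ UTR had 142, 109 and 198 nucleotides in these groups, and the shares were not adjusted for this length.

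Cytosolic synthetases carried far more footprints per length than mitochondrial ones in every library. A level here is CDS reads per kilobase of CDS and per 1000000 CDS reads of the library. In WT the median level was 73.0 for the 21 cytosolic enzymes (95% interval of the median 60.1 to 188), 10.02 for the 17 mitochondrial enzymes (7.75 to 14.0) and 21.2 for all genes. In Chx the medians were 73.3, 10.5 and 22.0, and in Harr they were 91.4, 7.58 and 20.7. The order of the classes was the same in all 3 libraries, with cytosolic enzymes above and mitochondrial enzymes below the median gene.

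For 4 members (Cars2, Fars2, Tars and Wars) the longest transcript is annotated as a target of nonsense-mediated decay with a shortened CDS, as it is for 750 of the 20823 genes. Values of single members below use the longest protein-coding transcript of these 4, a choice made after seeing the data. It left the WT median of the cytosolic enzymes at 73.0 and put that of the mitochondrial enzymes at 10.7.

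Nars, the asparaginyl-tRNA synthetase (chr18:64500518-64516458, mm10), had the highest level of all members, 344 in WT, 347 in Chx and 384 in Harr. Sars, the seryl enzyme, was next in WT and had 241 in WT, 239 in Chx and 218 in Harr. Wars, the tryptophanyl enzyme, had 195 in WT, 189 in Chx and 153 in Harr. In WT the 3 genes stood at percentiles 95.1, 93.0 and 91.2 of all genes tested. In WT their counting intervals did not overlap between Nars and Sars or between Sars and Wars, but Wars, Gars (194 in WT), Aars (190) and Yars (188) could not be ordered by counting. Gars, the glycyl enzyme, had 194 in WT, 235 in Chx and 245 in Harr, where it lay above Sars.

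The enzymes outside the complex filled the top of the order. In each library 7 enzymes, all outside the complex (Aars, Gars, Hars, Nars, Sars, Wars and Yars), lay above the highest enzyme of the complex. The 8 enzymes of the complex lay close together in WT, between 40.8 for Mars and 88.2 for Dars (chr1:128364234-128417217), with a median of 68.2. Dars, the aspartyl enzyme, had 88.2 in WT, 79.1 in Chx and 55.9 in Harr. Kars, the lysyl enzyme, had 73.9 in WT, 61.2 in Chx and 52.4 in Harr. Rars, the arginyl enzyme, had 73.0 in WT, 73.3 in Chx and 91.4 in Harr. Dars and Kars were thus lowest in Harr and Rars highest there. The 13 enzymes outside the complex spread wider, from 15.5 for Tarsl2 to 344 for Nars. Tarsl2 is an additional cytosolic threonyl enzyme beside Tars, and 4.17% of the 25-base words of its CDS also occur in transcripts of Tm2d3, so part of its reads may belong there. Tars itself had 46.7 in WT, 52.0 in Chx and 72.2 in Harr.

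In WT and Chx the scaffolds were read more than the enzymes they hold. Aimp1 had a level of 116 in WT, 119 in Chx and 47.4 in Harr. Aimp2 had 101 in WT, 113 in Chx and 39.9 in Harr. In WT and Chx both lay above all 8 enzymes of the complex without overlap of counting intervals. In Harr Aimp2 had the lowest value of the 10, with an interval that overlapped that of Qars (47.5). The place of Aimp1 in Harr depended on the transcript: on its longest it lay with Qars, Kars and Dars, whose intervals overlapped its own, and on a second transcript described below its level was 117 in WT, 122 in Chx and 80.3 (95% interval 71.3 to 90.1) in Harr, above 5 of the 8 enzymes. The Aimp1:Aimp2 ratio of levels was 1.15 (95% interval 1.07 to 1.23) in WT, 1.05 (0.991 to 1.12) in Chx and 1.19 (0.952 to 1.48) in Harr on the longest transcript, and 1.15, 1.09 and 2.01 (1.65 to 2.45) on the second.

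Among mitochondrial enzymes Nars2, the asparaginyl enzyme (chr7:96951804-97062713), was highest in WT and Chx, with levels of 28.9 in WT, 22.9 in Chx and 18.1 in Harr. Rars2, the arginyl enzyme, had 19.2 in WT, 17.4 in Chx and 30.4 in Harr, the highest of its class there. Yars2, the tyrosyl enzyme, had 16.5 in WT, 21.5 in Chx and 27.8 in Harr. Pars2, the prolyl enzyme encoded in 1 CDS exon on chromosome 4, was lowest in every library, with 3.94 in WT, 3.96 in Chx and 3.10 in Harr, the last from 18 reads. Neighbours in the order mostly could not be told apart, since 13 of 16 neighbouring mitochondrial enzymes had overlapping counting intervals in WT, as did 12 of 20 neighbouring cytosolic enzymes. The classes overlapped little: 2 cytosolic enzymes (Tarsl2 and Vars, the valyl enzyme, at 18.9) lay below Nars2 in WT, and Tarsl2 alone lay below the highest mitochondrial enzyme in Chx and in Harr.

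**Figure D1:**
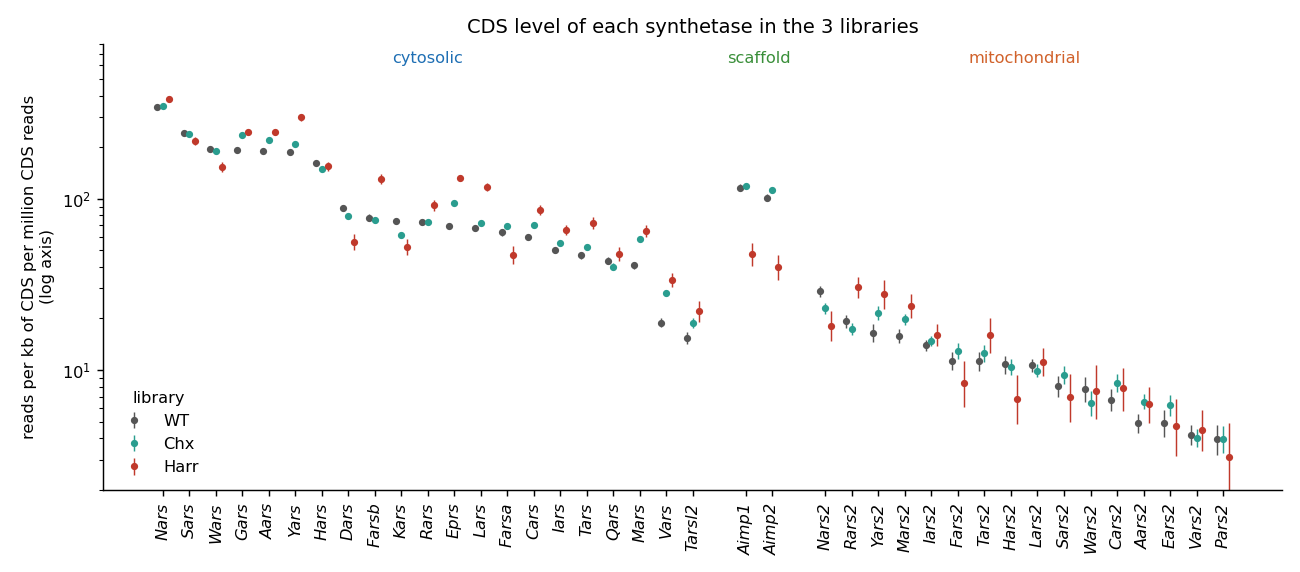
CDS level of 39 of the 40 members (x axis, ordered by the WT level within each class) in the 3 libraries, as reads per kilobase of CDS per 1000000 CDS reads on a log axis; bars are 95% Poisson intervals, and Cars2, Fars2, Tars and Wars are shown on their longest protein-coding transcript. Cytosolic enzymes run from 344 (Nars) to 15.5 (Tarsl2) in WT and mitochondrial ones from 28.9 (Nars2) to 3.94 (Pars2), and Aimp1 (47.4, on its longest transcript) and Aimp2 (39.9) are lower in Harr than in the other libraries.

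Compared amino acid by amino acid, the cytosolic enzyme was the more highly read in all 19 pairings in each library. The median cytosolic:mitochondrial ratio of levels was 8.96 in WT, 8.27 in Chx and 10.7 in Harr. The alanyl pair lay widest apart in WT, with an Aars:Aars2 ratio of 38.7 (95% interval 34.1 to 44.0), and had 33.5 in Chx and 38.6 in Harr. The seryl pair was next in WT, with a Sars:Sars2 ratio of 29.9 in WT, 25.4 in Chx and 30.9 in Harr. The methionyl pair was the closest among single cytosolic enzymes, with a Mars:Mars2 ratio of 2.58 (2.33 to 2.85) in WT, 2.93 in Chx and 2.73 in Harr. The additional threonyl enzyme Tarsl2 had a ratio to Tars2 of 1.38 (1.19 to 1.599) in WT, 1.498 in Chx and 1.37 in Harr. The threonyl ratio of Tarsl2 was the lowest in each library and the alanyl ratio the highest in WT and Chx. Eprs, which joins the glutamyl and prolyl enzymes in 1 protein, had 14.1 times the level of Ears2 in WT (11.9 to 16.8), 15.1 times in Chx (13.1 to 17.4) and 27.5 times in Harr (18.98 to 39.7), so that the Harr interval lay above both others. It had 17.5 times the level of Pars2 in WT (14.4 to 21.3), 23.8 times in Chx (19.9 to 28.4) and 41.3 times in Harr (26.2 to 65.3), and here the Harr interval overlapped that of Chx but not that of WT. Its CDS of 4539 nucleotides is the longest of all members, and length moved with the ratios between Harr and Chx, as described below. The log2 CDS ratio between Harr and Chx was 0.48 for Eprs, -0.38 for Ears2 and -0.32 for Pars2, but after adjustment for CDS length it was -0.14, -0.30 and -0.26, so that most of the difference between Eprs and its partners was gone.

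**Figure D2:**
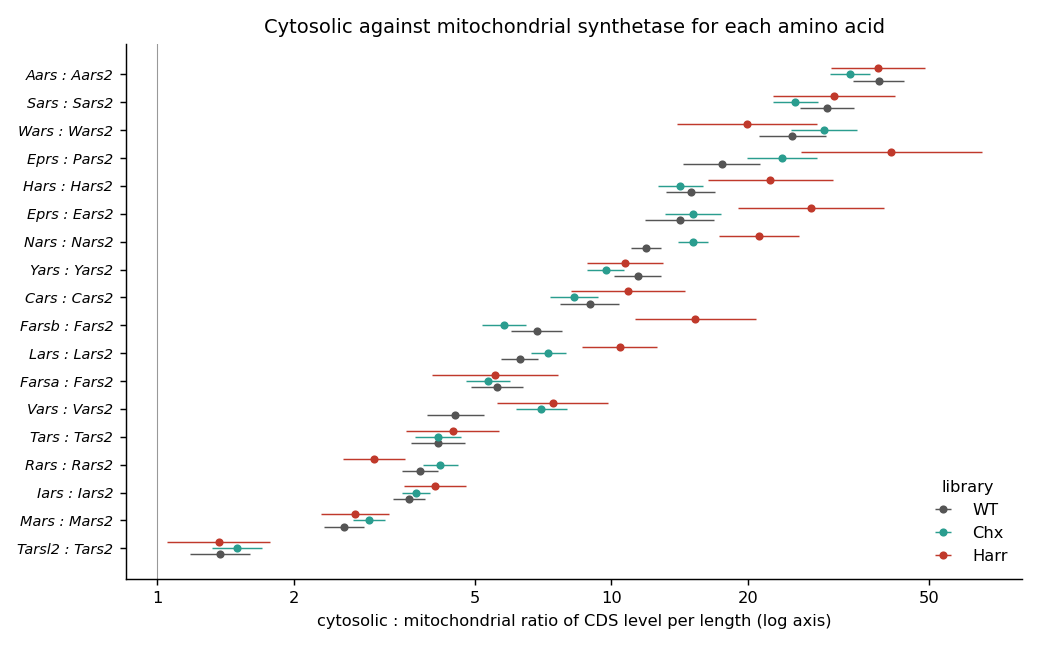
Ratio of the CDS level per length of the cytosolic to that of the mitochondrial synthetase (x axis, log scale) for 18 of the 19 pairings of enzymes for the same amino acid, in the 3 libraries, with 95% counting intervals. All points lie above 1, from 1.37 (Tarsl2 to Tars2 in Harr) to 41.3 (Eprs to Pars2 in Harr).

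The next question was how harringtonine changed the share of CDS reads each synthetase received. The CDS ratio compares, on the log2 scale, the share of a library's CDS reads that fall into a gene. Its median between Harr and Chx was 0.24 (95% interval of the median 0.06 to 0.36) for cytosolic enzymes, 0.12 (-0.38 to 0.26) for mitochondrial enzymes and -0.05 for all genes. Between Harr and WT it was 0.37 (0.13 to 0.67), 0.07 (-0.31 to 0.37) and 0.00. The sign of the cytosolic median depended on the scaling: per 1000000 reads of the whole library it was -0.31 against Chx and -0.14 against WT, so these ratios compare genes within the CDS reads and do not give a direction for all synthetases. A member was called past the fold when its log2 ratio was at least 1 in size with a counting interval that excluded 0. In Harr against Chx 1 of 40 members was called higher, where 4.63% of 11459 genes were, and 3 were called lower, where 13.7% of genes were. Per 1000000 reads of the whole library 0 members were called higher and 7 lower, where 0.559% and 31.2% of genes were. The call higher was the shortened CDS of Wars and 1 call lower was that of Cars2, and both were gone on the protein-coding transcripts, where the log2 ratios were -0.30 for Wars and -0.10 for Cars2. Against WT, 1 member (Wars again, on the shortened CDS) was called higher beside 5.3% of genes, and 2 were called lower beside 14.3%. With the scaling to the whole library these were 1 member beside 0.681% and 7 members beside 29% of genes.

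Per 1000000 CDS reads, both calls left were the scaffolds. Aimp2 (chr5:143902802-143909715) had 1628 CDS reads in WT, 2195 in Chx and 145 in Harr. Its log2 CDS ratio was -1.49 ± 0.12 (counting SE) in Harr against Chx and -1.34 ± 0.12 against WT. Reads were low in Harr along its whole CDS, at 0.24, 0.26, 0.23 and 0.57 of the Chx value per 1000000 in its 4 exon segments. Aimp1 (chr3:132660575-132677113) had 1808 CDS reads in WT, 2236 in Chx and 167 in Harr. Its log2 CDS ratio was -1.32 ± 0.12 in Harr against Chx and -1.29 ± 0.12 against WT. For Aimp1 the call depended on the transcript, a check added after seeing the data. A second transcript, with a 5′ UTR of 90 and a CDS of 960 nucleotides in place of 119 and 933, counts the last 25 nucleotides of this 5′ UTR (chr3:132677114-132677138) as CDS, a stretch with 66 reads in WT, 139 in Chx and 124 in Harr. On that transcript the ratio between Harr and Chx was -0.61 ± 0.09, short of the fold and near the value of genes of its length, with a length-adjusted ratio of -0.06. The rest of the longer 5′ UTR, 94 nucleotides, had 0 reads in WT, 2 in Chx and 0 in Harr.

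CDS length moved with these ratios over all genes, and the classes differed in length, with a median CDS of 1983 nucleotides in cytosolic and 1557 in mitochondrial enzymes, against 1386 over all genes tested. Each ratio was therefore also set against the median of the genes nearest in CDS length. The length-adjusted median between Harr and Chx was -0.05 (-0.27 to 0.14) for cytosolic enzymes and -0.26 (-0.30 to 0.20) for mitochondrial enzymes, so that neither class lay apart from genes of its length by more than the interval of its median. Between Harr and WT the adjusted medians were 0.12 (-0.11 to 0.21) and -0.12 (-0.34 to 0.39). Aimp2 had the lowest adjusted value of all members, -0.94, and Aimp1 had -0.77 on its longest transcript but -0.06 on the second, against a range from -0.53 (Hars2) to 0.87 (Yars2) over the enzymes.

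Single enzymes differed in both directions. Rars2 was the highest mitochondrial enzyme, with 557 CDS reads in WT, 611 in Chx and 199 in Harr and a log2 ratio of 0.80 ± 0.12 between Harr and Chx (0.78 after adjustment). Fars2, the mitochondrial phenylalanyl enzyme, was the lowest of its class, with 256, 354 and 43 reads and a ratio of -0.61 ± 0.23. In the complex, Lars, the leucyl enzyme with a CDS of 3537 nucleotides, was highest at 0.70 ± 0.04 (0.16 after adjustment), from 3959 reads in WT, 5158 in Chx and 1560 in Harr. Dars was the lowest enzyme of the complex at -0.50 ± 0.09 (-0.43 after adjustment), from 2214, 2407 and 318 reads.

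The cytosolic phenylalanyl enzyme is built of Farsa and Farsb, its alpha and beta subunits, and these parted in Harr. Farsa (chr8:84857035-84869004) had levels of 63.7 in WT, 69.2 in Chx and 47.0 in Harr. Farsb (chr1:78425194-78488842) had levels of 77.7 in WT, 75.03 in Chx and 130 in Harr. The Farsa:Farsb ratio of levels was 0.820 (95% interval 0.769 to 0.874) in WT, 0.923 (0.872 to 0.976) in Chx and 0.362 (0.316 to 0.415) in Harr. The subunits were thus read at close levels without harringtonine and far apart with it. Farsa was the lowest and Farsb the highest enzyme outside the complex in log2 CDS ratio between Harr and Chx, at -0.56 ± 0.09 and 0.79 ± 0.06, and the adjusted values were -0.49 and 0.72, although their CDSs have 1527 and 1770 nucleotides. The first exon segment of Farsb, 58 nucleotides, held 147 of its 869 CDS reads in Harr and 313 of 2684 in Chx.

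**Figure D3:**
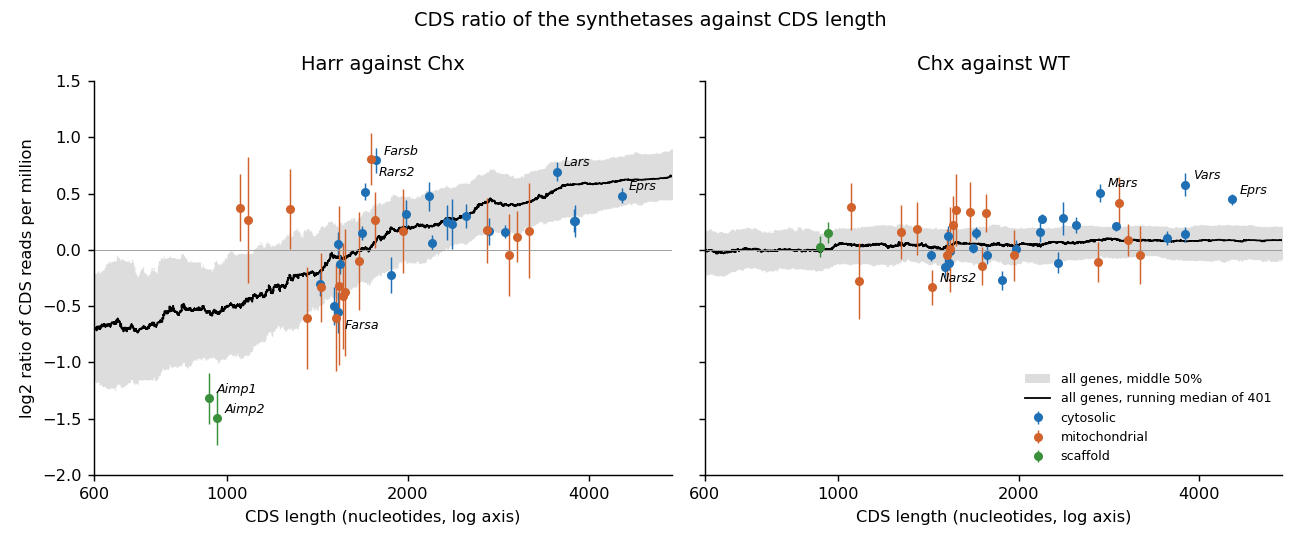
Log2 ratio of CDS reads per 1000000 (y axis) against CDS length (x axis, log scale) for the 40 members, Harr against Chx on the left and Chx against WT on the right; bars are 95% counting intervals, the line is the running median over genes of like length and the grey band the middle 50% of all genes tested. In Harr most members follow the line, Aimp1 (-1.32 on its longest transcript, -0.61 on the second, which is not plotted) and Aimp2 (-1.49) lie under the band and Farsb (0.79) and Rars2 (0.80) above it.

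The tables give reads per exon segment, which places the Harr reads along each CDS. Distances were grouped after seeing the data, by the midpoint of segments of at most 600 nucleotides. Cytosolic enzymes had 2.00 times (95% interval 1.92 to 2.08) the Chx reads per 1000000 within 100 nucleotides of the start codon, 0.475 times from 100 to 300, 0.385 times from 300 to 600 and 0.555 times from 600 to 900. The ratio then came to 0.976 from 900 to 1200, 1.69 from 1200 to 1500 and 2.11 from 1500 to 1800 nucleotides. In these sums reads were thus sparse between about 100 and 900 nucleotides. Near the start Yars, Gars and Wars held 1811 of the 3431 Harr reads, and without these 3 genes the ratio there was 1.44 (1.36 to 1.52), a check added after seeing the data. Of the 19 genes with a segment there 14 had a ratio above 1, while Cars, Kars, Lars, Mars and Sars had ratios below 1. All genes had ratios of 1.18, 0.472 and 0.399 in the first 3 of these ranges and of 1.22, 1.79 and 2.15 in the last 3. Mitochondrial enzymes, with 72 Harr reads from 8 genes within 100 nucleotides, had 0.854 (0.667 to 1.09) there, 0.927 from 100 to 300, 0.652 from 300 to 600 and 2.03 from 1500 to 1800.

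For CDSs of at least 1800 nucleotides the segments within 600 nucleotides of the start codon were set against those from 1200 nucleotides on. The log2 change of near against far reads between Harr and Chx had a median of -1.47 (95% interval of the median -2.09 to -0.88) over 12 cytosolic enzymes, -1.77 over 5 mitochondrial enzymes and -1.50 over 3017 genes. The change was below 0 in all 17, as it was in most of the 3017 genes, whose median lay near those of the enzymes. Among cytosolic enzymes it was largest in Lars. Lars had -2.43 ± 0.17, from 1123 near and 3042 far reads in Chx and 84 near and 1231 far reads in Harr, with 0 Harr reads against 173 in Chx in the segment of 81 nucleotides centred 259.5 nucleotides from its start. At the other end Aars2 had -0.26 ± 0.40 and Tarsl2 had -0.28 ± 0.25, neither apart from 0 by its counting interval. Gars had -0.88 ± 0.08, from 4170 near and 3677 far reads in Chx and 678 near and 1097 far reads in Harr; its first segment, 192 nucleotides that hold both ATGs shown above, alone had 1074 reads in Chx and 498 in Harr, 2.48 times the Chx value per 1000000.

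**Figure D4:**
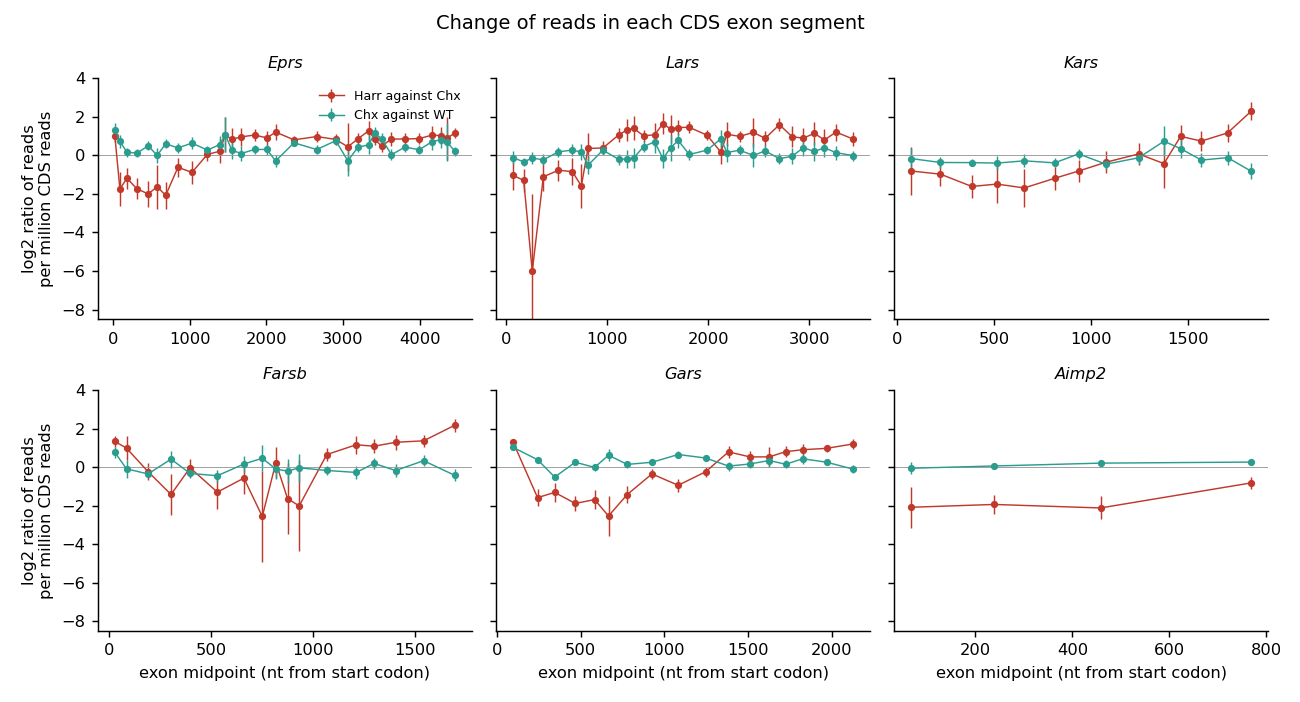
Log2 ratio of reads per 1000000 CDS reads (y axis) in each CDS exon segment, placed by the distance of its midpoint from the start codon (x axis, nucleotides), for 6 members; bars are 95% counting intervals, red is Harr against Chx, green is Chx against WT, and segments with under 10 reads in a pair are left out. In Harr the first segments of Eprs, Farsb and Gars lie above 0 (2.01, 2.52 and 2.48 times Chx), those that follow mostly below it and the far ones above it; in Lars and Kars the segments near the start lie below 0, as do all 4 of Aimp2.

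Footprints before the start codon took a larger share with harringtonine in nearly every member. Reads were counted at their 5′ end, so a ribosome on the start codon is counted in the 5′ UTR. The 21 cytosolic enzymes together had 2.33% of their reads in the 5′ UTR in WT (Wilson 95% interval 2.23 to 2.43), 4.45% in Chx (4.33 to 4.58) and 19.7% in Harr (19.3 to 20.2). Aars alone held 542 of these 1892 5′ UTR reads in WT, 1349 of 4872 in Chx and 1424 of 5742 in Harr. The 17 mitochondrial enzymes had 6.65% in WT (6.05 to 7.32), 9.75% in Chx (9.10 to 10.4) and 30.4% in Harr (28.5 to 32.4), and the 2 scaffolds, with Aimp1 on its longest transcript, had 3.63%, 4.42% and 44.0%. With Aimp1 on its second transcript the scaffolds had 1.90% in WT (1.499 to 2.40), 1.95% in Chx (1.59 to 2.39) and 29.7% in Harr (26.4 to 33.2). The shares of all genes were 6.14%, 8.71% and 33.5%, so that the scaffolds lay above all genes in Harr on the first transcript of Aimp1 and below them on the second. Both enzyme classes gave the same order of libraries as all genes, with cytosolic enzymes at lower shares than all genes throughout.

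Per gene this was measured by the log2 odds ratio, between libraries, of reads in the 5′ UTR to reads in the CDS, which scaling of the libraries does not touch. Between Harr and Chx its median was 2.40 (95% interval of the median 2.00 to 2.87) over 21 cytosolic enzymes, 2.19 (1.45 to 3.23) over 16 mitochondrial enzymes and 2.46 over 10723 genes. With the same fold rule and at least 10 5′ UTR reads in the pair of libraries, 34 of 39 members were called higher in Harr than in Chx and 0 lower, where 88.8% and 0.12% of 10806 genes were. Against WT, 34 of 34 were called higher and 0 lower, beside 93.7% and 0.135% of genes. The members' share was near that of all genes in both comparisons. Rars2 could not be assessed, since its 5′ UTR of 34 nucleotides had 0 reads in every library, which allows up to 3 reads in each.

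Aimp2 and Sars stood highest between Harr and Chx. Aimp2 had 64 5′ UTR reads in WT, 64 in Chx and 155 in Harr, beside its 145 CDS reads there, and an odds ratio of 5.18 ± 0.25 between Harr and Chx. Sars had 64 in WT, 48 in Chx and 157 in Harr, and 4.25 ± 0.24, the highest of the enzymes. Aimp1 had 66, 141 and 124, and 3.55 ± 0.21; its second transcript gave 3.82 ± 0.36. Mars2 was the highest mitochondrial enzyme at 4.03 ± 0.78, from 3, 4 and 16 reads. Rars was the highest of the complex at 3.48 ± 0.30, from 19, 32 and 84 reads. The lowest were Kars in the complex, 1.70 ± 0.33 from 38, 58 and 30 reads, Farsb outside it, 1.79 ± 0.14 from 118, 242 and 272 reads, and Yars2 of the mitochondrial class, 0.93 ± 0.48 from 6, 31 and 14 reads in a 5′ UTR of 19 nucleotides. In Harr against WT, Gars was highest of all members at 5.56 ± 0.26, from 33 5′ UTR reads in WT, 212 in Chx and 454 in Harr in only 35 nucleotides, Dars (4.84 ± 0.21) led the complex and Hars2 (4.74 ± 0.37) the mitochondrial class, in which Pars2 was lowest at 1.77 ± 0.65. Kars again was lowest among cytosolic enzymes at 2.30 ± 0.36, with the 5′ UTR of its longer form. Part of that 5′ UTR is CDS in another of its own transcripts, as is the case for Aimp1 and Pars2. Reads before the start of its shorter form, 21 in WT, 41 in Chx and 47 in Harr, lie outside that 5′ UTR. The low Kars ratios, also between Harr and Chx, thus hold for the longer form and leave out those reads.

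Members with and without an ATG in the 5′ UTR had close medians between Harr and Chx, 2.40 over 15 and 2.34 over 23 members, where all genes gave 2.27 and 2.77. Between Harr and WT the medians were 2.96 over 14 members with and 3.57 over 19 without, and over all genes 2.80 and 3.81. Between Chx and WT they were 0.60 over 14 and 1.37 over 21 members, and over all genes 0.47 and 0.98. This split was made after seeing the data and is a description.

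Cycloheximide before harvest changed the CDS share of synthetases little. The median CDS ratio between Chx and WT was 0.12 (95% interval of the median -0.05 to 0.28) for cytosolic enzymes, 0.09 (-0.05 to 0.32) for mitochondrial enzymes and 0.03 for all genes. No member was called in either direction (0 of 40), beside 0.201% of genes called higher and 0.122% lower. Length adjustment left medians of 0.06 (-0.05 to 0.22) and 0.01 (-0.13 to 0.28). Some of the long enzymes stood highest within the fold. Vars had 1197 CDS reads in WT, 2169 in Chx and 482 in Harr, and 0.58 ± 0.05 between Chx and WT. Mars had 1858, 3199 and 670, and 0.51 ± 0.04. Eprs had 5245, 8671 and 2259, and 0.45 ± 0.03. Nars2 was the lowest of the mitochondrial class, at -0.33 ± 0.08 from 690 reads in WT and 664 in Chx. Kars was the lowest of the complex, at -0.27 ± 0.04 from 2310 and 2320. Outside the complex Hars, the histidyl enzyme, was lowest at -0.12 ± 0.03. In the mitochondrial class Aars2 was highest at 0.42 ± 0.12.

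Relative to the CDS, the 5′ UTR held more reads in Chx than in WT for part of the members. The median odds ratio between Chx and WT was 1.00 (95% interval of the median 0.60 to 1.42) over 21 cytosolic enzymes, 0.65 (-0.01 to 1.61) over 13 mitochondrial enzymes and 0.67 over 10430 genes. Of 36 members 14 were called higher, beside 30.2% of 10483 genes, and 0 lower, beside 1.09%. Gars was the highest cytosolic enzyme, 2.11 ± 0.27, and its first CDS segment also had 2.04 times as many reads per 1000000 in Chx as in WT. Eprs was the highest of the complex, 1.57 ± 0.29 from 30 5′ UTR reads in WT and 149 in Chx, and its first CDS segment had 2.51 times the WT value. Iars2, the mitochondrial isoleucyl enzyme, had 2.57 ± 1.25 from 1 and 11 reads, too few for more than the direction. Sars was the only cytosolic enzyme whose 5′ UTR:CDS ratio was lower in Chx by more than its counting interval, at -0.68 ± 0.28 from 64 and 48 reads; Nars had -0.02 ± 0.17 from 134 and 162 reads. Rars was the lowest of the complex at 0.45 ± 0.42, and Pars2 of the mitochondrial class at -0.45 ± 0.53, both within their intervals of 0.

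The last CDS segment went the other way in many cytosolic enzymes, as it did in most genes. This measure was chosen after seeing the data and sets the segment against the CDS segments between the first and the last. The log2 odds ratio of last against middle reads between Chx and WT was below 0 for 19 of 21 cytosolic enzymes. Their median of -0.33 was near the -0.32 over 9000 genes, so the fall is not particular to them. The ratio was below 0 for 8 of 15 mitochondrial enzymes, with a median of -0.01. Iars, the isoleucyl enzyme, was farthest out, with 81 reads in WT, 11 in Chx and 10 in Harr in its last 83 nucleotides (chr13:49733659-49733741) and -3.24 ± 0.46; 24.8% of the 25-base words of its CDS also occur in the transcript of Gm4849, so part of its reads may belong there. Yars had 790 reads in WT, 362 in Chx and 241 in Harr in its last 111 nucleotides and -1.74 ± 0.10. Farsa had 190, 110 and 58 reads and -1.28 ± 0.18. In Harr against Chx the last segment was instead higher for 21 of 21 cytosolic and 12 of 13 mitochondrial enzymes, with medians of 1.66 and 1.29. The median over 8362 genes was 1.16, so the last segment was higher in most genes too. With Cars2, Fars2, Tars and Wars on their protein-coding transcripts, 3′ UTRs held 0.524% of the cytosolic enzymes' reads in WT (0.477 to 0.576), 0.310% in Chx (0.279 to 0.345) and 3.01% in Harr (2.82 to 3.21). All genes gave the same order, with 2.16% in WT, 1.69% in Chx and 4.09% in Harr. On the longest transcripts, where coding exons of Wars and Tars count as 3′ UTR, the shares were 7.19%, 5.99% and 5.95%, so that their order across libraries depended on the transcript.

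The exon that opens the mitochondrial form of Kars was covered less than the exon that both forms share. Its CDS part (chr8:112008207-112008352, 146 nucleotides) had 47 reads in WT, 51 in Chx and 5 in Harr. The next exon (chr8:112005632-112005788, 157 nucleotides) had 239, 225 and 21. Per nucleotide the former came to 21.3% of the latter in WT (95% interval 15.6 to 29.1), 24.6% in Chx (18.1 to 33.2) and 27.5% in Harr (10.8 to 70.2). The intervals of the 3 libraries overlapped. The 55 nucleotides of 5′ UTR before the start of the shorter form had 21 reads in WT, 41 in Chx and 47 in Harr, so reads before that ATG were highest in Harr while those in the exon of the longer form were lowest there. The exon and its neighbour were chosen after seeing the data. It is no measure of the proportion of protein made, because the exon also carries the start codon, and 8.43% of the 25-base words of the Kars CDS occur in transcripts of Gm8428. The longer form has a CDS of 1875 nucleotides and the shorter of 1788.

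Other genes of the pathway were taken from a list of 16, with 10 set apart from 6 of mitochondria. Where each of the 10 proteins acts was not checked here, and they are not all proteins of the cytosol alone. The 10 were the complex subunit Eef1e1, the editing enzymes Aarsd1, Dtd1 and Dtd2, the CCA-adding enzyme Trnt1, the hydrolase Ptrh2, the selenocysteine enzymes Pstk and Sepsecs and the elongation factors Eef1a1 and Eef1a2. The 6 were Mtfmt, which formylates the initiator tRNA, Gatb, Gatc and Qrsl1, which make glutaminyl-tRNA, and the factors Tufm and Tsfm. In Harr against Chx 0 of 16 were called higher and 3 lower in CDS ratio, beside 4.63% and 13.7% of all genes, with a median of -0.39. In Harr against WT 1 (Mtfmt, 1.05) was called higher and 3 lower, beside 5.3% and 14.3%, with a median of -0.42. Dtd1, which removes D-amino acids from tRNA, had levels of 91.0 in WT, 112 in Chx and 28.2 in Harr. Its ratio between Harr and Chx was the lowest of the list, -1.98. Dtd2 had -1.71, from only 10 CDS reads in Harr. Tufm, the mitochondrial elongation factor, had levels of 89.8, 94.3 and 37.7 and a ratio of -1.32. The ratios of the list were not adjusted for CDS length, and the CDS is short in Dtd1 (630 nucleotides) and Dtd2 (507). In Chx against WT 0 of 16 were called in either direction, beside 0.201% of all genes called higher and 0.122% lower. In 5′ UTR:CDS ratio 14 of 14 with enough reads were called higher in Harr than in Chx, beside 88.8% of all genes, and 3 (Eef1e1, Eef1a1 and Gatb) in Chx than in WT, beside 30.2%. These counts lie near the shares of all genes. Eef1e1, the third scaffold-like subunit of the complex, had levels of 195 in WT, 161 in Chx and 106 in Harr, a CDS ratio of -0.60 between Harr and Chx and a 5′ UTR odds ratio of 3.46.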

How the data were processed

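Libraries were grouped by their treatment field, because the descriptions beside it name fractions of a different experiment. The authors deposited 9 tables, 1 per library and region, that list for each exon segment of each transcript a read count (whole and unnormalized), a coverage signal (count per nucleotide) and RPKM. Only the counts were used. Per the file headers, reads of 25 to 100 nucleotides on mm10 were counted at their 5′ end with an offset of 0, without ribosomal or duplicate reads; the study's methods name TopHat, with reads of several alignments kept, for its search for translated ORFs, and whether these tables come from those alignments is not given in the sources used here. Counts at the 5′ end place a ribosome on the start codon in the 5′ UTR and depend on the annotated start.

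Transcripts were named with GENCODE M21 (99.1% of 142446 identifiers matched with their version). For each gene the longest transcript with all 3 regions was used, as the study did for its other libraries. The pseudocount was 0.5. Ratios needed at least 100 CDS reads over the libraries, 5′ UTR medians at least 10 reads per region in the pair, and position changes a CDS of at least 1800 nucleotides and at least 50 reads in each part. With 1 library per treatment there is no test; SEs come from the counts, level intervals are exact Poisson, shares Wilson, and the interval of a median is distribution-free and describes genes. Reads are not independent molecules, so all of these cover only counting error. The limit that 0 reads allow, 3 reads, is 0.795 CDS reads per 1000000 in Harr, 0.180 in WT and 0.148 in Chx; Harr, the shallowest library, is the least precise.

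Members, gene lists and alternatives were chosen with earlier results of these data known. All members were reported by role, with full values for the 3 most read of each role in WT, for subunits, scaffolds and dual-product genes, and for the highest and lowest of each role. Alternatives were reads per 1000000 of the library, median-of-ratios factors, a pseudocount of 5, no minimum, the most-read transcript, 5′ UTRs free of annotated CDS, 5 length classes, and limits of 900 and 1500 nucleotides; the longest protein-coding transcript and a second Aimp1 transcript were added after seeing the data. Scripts were tested on simulated data. Python 3.11.15, pandas 2.3.3, SciPy 1.17.1 and bedtools 2.31.1 were used. Sequences on chromosome 18 and the single values of 1 member are not reported here; class values include that member.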

Additional observations from a re-analysis of the deposited data

How the results depend on the processing

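No paired analysis was possible because each treatment has 1 library. Of 186 recomputed class medians and counts of members past a fold, 168 stayed within the interval of the median or within 1.5 times the count, 16 moved and 2 reversed. Scaling to all reads of the library, of which Harr holds a smaller CDS share, lowered every CDS ratio in Harr: the cytosolic median reversed to -0.31 against Chx and to -0.14 against WT, the mitochondrial median moved to -0.43 and -0.44, members called lower came to 7 against Chx and 7 against WT (31.2% and 29% of genes), and members called higher against Chx came to 0 (0.559% of genes). The same scaling put WT, Chx and Harr levels at 40.3, 41.4 and 35.4 for cytosolic and at 5.53, 5.92 and 2.93 for mitochondrial enzymes, with the cytosolic class above throughout. On the transcript with the most reads 0 members were called higher in Harr than in Chx, 0 higher than in WT and 1 lower than in WT. Calls over all genes were not counted for that choice, so these numbers have no share beside them. On the longest protein-coding transcript 0 were called higher against Chx and 0 against WT, while Aimp1 and Aimp2 were called lower against both. All genes were not counted for this choice either. The Wars ratio between Harr and Chx reversed to -0.30 on the most-read and on the protein-coding transcript. Of 353 recomputed values of single members, 309 stayed within their counting interval. The 5′ UTR:CDS and position medians stayed within their intervals under all alternatives run. Depth limits the mitochondrial enzymes most, whose Harr CDS counts were as low as 18.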
